A study of Mus musculus with 2 samples.

Results

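A set of small structural RNAs is described here: the 7SL RNA genes Rn7s1 and Rn7s2, the 7SK RNA gene Rn7sk, the RNase MRP and RNase P RNA genes Rmrp and Rpph1, the telomerase RNA gene Terc, the Y RNA genes Rny1 and Rny3, and the vault RNA gene Vaultrc5. They were found by symbol, and Rmrp has 2 gene identifiers, so the 9 symbols gave 10 of the 55536 genes in the tables. The RNA came from adrenal gland tissue of 2 female B6CASTF1/J mice, an F1 cross, aged 18 to 20 months, with no treatment named. Each library started from 300 ng of total RNA, depleted of ribosomal RNA, and the kit kept track of the transcribed strand. ERCC spike-ins, synthetic RNAs of known sequence, had been added. The animals are called animal 1 and animal 2 after the replicate numbers in the labels. They form 1 group, so nothing was tested between groups, and a ratio between them compares 2 libraries. The labels give both animals 1 donor identifier, and 1 label field of animal 2 carries the name of animal 1, while other fields name separate tissue samples. The samples were treated as 2 animals, which the labels leave unsure.

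These RNAs work as parts of RNA-protein particles and carry no protein code. The 7SL RNA is the scaffold of the signal recognition particle, which brings ribosomes that make secreted and membrane proteins to the endoplasmic reticulum. The 7SK RNA holds the elongation kinase P-TEFb in an inactive state, RNase P trims the leader of precursor tRNAs, and RNase MRP cuts precursor ribosomal RNA. RNA polymerase III makes all of these RNAs except Terc, the template of telomerase, which RNA polymerase II makes. They lack the poly(A) tail of messenger RNA, so a total RNA library can hold them where a poly(A)-selected one holds few.

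Sequences of 5 of the RNAs are shown in the DNA alphabet, 5′ to 3′, from the GENCODE M21 transcripts on GRCm38. Rn7s1 lies at chr12:69159295-69159594 on the plus strand and Rn7s2 at chr12:69361182-69361481 on the minus strand, and both transcripts were identical over 300 of 300 bases, so no read could be placed on one gene rather than the other from its sequence. Their nearest annotated copy, Gm24105, had 1 expected count in animal 1 and 0 in animal 2.

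Rn7sk lies at chr9:78175303-78175633 on the minus strand, and its first 300 of 331 bases are shown. Capitals mark the 35 bases that differ from, or are missing in, its nearest annotated copy, Gm23037, which had 0 and 2 expected counts in animals 1 and 2.

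Rn7sk: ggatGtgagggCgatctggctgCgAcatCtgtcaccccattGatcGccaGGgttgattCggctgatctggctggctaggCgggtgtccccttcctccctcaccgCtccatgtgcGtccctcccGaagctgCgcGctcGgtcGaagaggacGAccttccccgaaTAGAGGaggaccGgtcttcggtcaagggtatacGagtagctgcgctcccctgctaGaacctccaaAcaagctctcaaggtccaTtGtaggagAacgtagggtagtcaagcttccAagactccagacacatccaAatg

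Rmrp has a 271 nt model, annotated as a ribozyme, at chr4:43492788-43493058, and a 281 nt model, annotated as a lincRNA, at chr4:43492783-43493063, both on the minus strand. The longer model holds the whole shorter one, and only 5 bases at each end set them apart. The first and last 30 bases of the longer model are shown with those bases in capitals, because the split of the Rmrp reads rests on them.

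Rmrp start: AGGCAgctcgctctgaaggcctgtttccta
Rmrp end: acacggggctcattctcagcgcggcTACAC

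Terc lies at chr3:96414437-96414859 on the minus strand. Its first 300 of 423 bases are shown. The letters CTAACC, part of the template for the telomere repeat, are in capitals; they were searched on the transcript strand only and matched 1 time in the transcript, from base 29. Of 10989 annotated transcripts of 373 to 473 nt, 525 (4.78%) held the same letters.

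Terc: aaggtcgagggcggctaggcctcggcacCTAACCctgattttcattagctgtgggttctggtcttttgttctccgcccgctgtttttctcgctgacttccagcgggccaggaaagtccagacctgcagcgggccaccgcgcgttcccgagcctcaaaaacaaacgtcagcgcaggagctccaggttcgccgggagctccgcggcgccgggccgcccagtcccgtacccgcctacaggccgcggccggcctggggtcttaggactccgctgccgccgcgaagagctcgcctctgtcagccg

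The Y RNAs Rny1, at chr6:47788069-47788180 on the minus strand, and Rny3, at chr6:47781624-47781725 on the plus strand, shared 80 aligned bases. Capitals mark the run of T at the end of each, the letters at which RNA polymerase III stops. Of 6124 annotated transcripts of at most 150 nt, 489 (7.98%) ended in TTTT.

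Rny1: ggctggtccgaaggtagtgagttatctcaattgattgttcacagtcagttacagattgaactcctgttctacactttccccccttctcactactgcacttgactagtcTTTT
Rny3: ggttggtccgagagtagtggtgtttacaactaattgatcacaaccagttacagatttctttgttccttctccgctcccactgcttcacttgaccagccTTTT

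Each library was quantified by the authors in 2 ways. The first gave an expected count and a TPM per gene, where TPM is abundance per length scaled to a fixed total, and was derived from an alignment to the transcriptome. The second gave an estimated count and a TPM per transcript, summed here per gene, and was derived directly from the read files and an index. The genes of animals 1 and 2 held 35452819 and 34879073 expected counts, and 34351154 and 34690754 estimated counts. Adrenal cortex markers summed to 11985 and 15115 TPM in the first quantification of animals 1 and 2, and medulla markers to 1796 and 1517 TPM. Of the 5 cortex genes, 3 were higher in animal 2 and 2, Cyp11a1 and Cyp11b1, were higher in animal 1. Adipocyte markers (3072 and 1938 TPM), striated muscle markers (154 and 0.34 TPM) and plasma and B cell markers (57.1 and 13.4 TPM) were all higher in animal 1, for 5 of 5 genes in each list. In bulk tissue, fewer cells of a type and less RNA per cell cannot be told apart.

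In the first quantification these 10 genes took 42.4% of all TPM in animal 1 and 40.2% in animal 2, and 9.45% and 8.35% of the expected counts of genes. In the second they held 38.8 and 63.4 TPM, resting on 103 and 150 estimated counts. Detection here means 1 TPM or more in each of the libraries. By that measure 9 of the 10 were detected in the first quantification, where 22.6% of all genes were, and 5 in the second, where 24.9% were. Here and in later counts of members, Rn7s1, Rn7s2 and both Rmrp models count separately, though reads are shared within each pair.

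**Figure D1:**
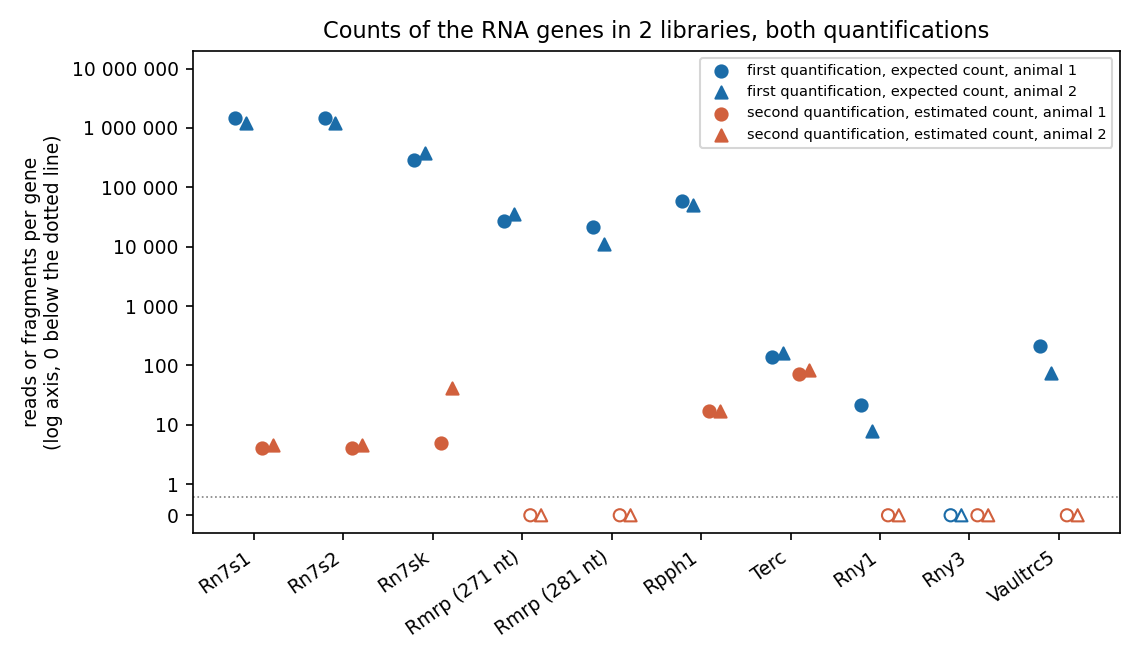
Counts per gene (log axis, with 0 drawn below the dotted line) for each member in animal 1 (circles) and animal 2 (triangles). The first quantification (blue) runs from 0 for Rny3 to 1475785 for Rn7s1 and Rn7s2, while in the second (orange) no member is above 83, the value of Terc in animal 2.

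The 7SL RNA had the highest TPM in the first quantification. Rn7s1 and Rn7s2 had the same value in each library, 1475785 expected counts each in animal 1 and 1218748 in animal 2, and shared rank 1 of all genes by TPM. Their TPM was 188893 and 170847 (179870 ± 12761, SD, n = 2). Since their sequences are identical, only the sum is a measurement, and it was 8.33% of expected counts in animal 1 and 6.99% in animal 2, or 37.8% and 34.2% of all TPM. The second quantification gave the sum 8 and 9 estimated counts (95% Poisson intervals, 3.45 to 15.8 and 4.12 to 17.1, for counting error only). The expected count was therefore 368946-fold higher than the estimated count in animal 1 and 270833-fold higher in animal 2.

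Both animals were close in 7SL RNA. The log2 ratio of animal 2 over animal 1 was -0.19 with TMM scaling, which sets the bulk of genes equal, and 0.03 when the spike-in totals were set equal. The 17012 genes whose expected counts averaged 10 or more were compared, and their TMM ratios had a median of -0.01 and ran from -1.29 to 1.16 between the lowest and highest 2.5%. With spike-in totals the median was 0.21, so the sign of a small ratio depended on the scaling. Rps29, a ribosomal protein gene that starts 108 bases from Rn7s1, had 393 and 386 TPM in the first quantification. The miRNA entries Gm47287, Gm47295, Gm47299 and Gm47305, which lie on the 7SL genes, had an effective length of 0 and were listed at 0.

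Transcripts for the proteins of the signal recognition particle and its receptor were read by both quantifications. All 10 measured genes were detected in each, none was 2-fold apart between the animals, where 7.68% of all genes were, and their TMM log2 ratios had a median of 0.09. Srp14, which binds the Alu domain of 7SL RNA, had 66.4 and 65.5 TPM in the first quantification. Srp54a, the subunit that recognises the signal peptide, had 45.4 and 62.1 TPM, and its copies Srp54b and Srp54c share sequence with it, so the division among them is uncertain. Srpr, the receptor subunit, had 42.3 and 48.2 TPM, and Srp72, a subunit bound to the S domain, 36.5 and 41.9 TPM. In the first quantification the genes of the particle and its receptor summed to 313 and 358 TPM, against 377787 and 341694 TPM for 7SL RNA.

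Rn7sk was the next most abundant of the RNAs. Animals 1 and 2 had 292124 and 378617 expected counts of it, or 32394 and 45983 TPM (39189 ± 9609, SD, n = 2), which ranked 5 and 4 among all genes. The deposited interval of its TPM in animal 1, 31718 to 31946, did not hold the printed TPM, and the same was true of Rn7sk in animal 2 and of Rpph1 in both animals. Animal 2 was the higher one, by a log2 ratio of 0.46 with TMM and 0.68 with spike-in totals, short of 2-fold in both.

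The second quantification gave Rn7sk 5 and 41 estimated counts (95% Poisson intervals, 1.62 to 11.7 and 29.4 to 55.6), or 2.46 and 21.6 TPM. The ratio between the animals was there 2.94 on the log2 scale, past 2-fold, but it rests on 0.00171% and 0.0108% of the expected counts. The expected count exceeded the estimated one 58425-fold in animal 1 and 9235-fold in animal 2. C920006O11Rik, a lincRNA 280 bases away on the other strand, had 29 and 19 expected counts.

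Transcripts for the protein partners of 7SK RNA and for P-TEFb had far lower TPM than 7SK RNA. Of 7 genes, 6 were detected in the first quantification and 7 in the second. None of the 7 was 2-fold apart between the animals, where 7.68% of all genes compared were. With TMM 5 were higher in animal 2, and 6 with spike-in totals. Hexim1, the inhibitor that 7SK RNA brings to the kinase, had 27.7 and 25.2 TPM in the first quantification. Cdk9, the kinase itself, had 19.1 and 26.4 TPM, and its cyclin Ccnt1 13.9 and 19.9 TPM. Mepce, which caps 7SK RNA, had 13.6 and 13.5 TPM. Hexim2, the second inhibitor, had 1.97 and 0.84 TPM, and was the one gene of the list not detected.

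RNase P and RNase MRP RNA had similar levels. Rpph1, at chr14:50807449-50807767 on the minus strand, had 58980 and 49839 expected counts, or 6897 and 6383 TPM (6640 ± 363, SD, n = 2). Rmrp, as the sum of its models, had 48594 and 46095 expected counts, or 7092 and 7452 TPM (7272 ± 255, SD, n = 2). The TPM of Rpph1 over that of Rmrp was 0.973 in animal 1 and 0.857 in animal 2. On the log2 scale this is -0.13 ± 0.13 (SD, n = 2), so by TPM their order was not separated from the spread. By expected counts, with no correction for length, Rpph1 over Rmrp was 1.21 and 1.08, so the order changed with the measure. The ratio between animals was -0.16 for Rpph1 and 0.01 for Rmrp on the log2 scale with TMM, and 0.06 and 0.23 with spike-in totals.

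The split of Rmrp between its 2 models differed between the animals more than its sum did. Expected counts of the 271 nt model were 27060 and 35033 in animals 1 and 2, and those of the 281 nt model 21534 and 11062. The shorter model thus took 55.7% of the Rmrp counts in animal 1 and 76.0% in animal 2. Taken alone, the models had log2 ratios of 0.46 and -0.88. Reads that do not reach the outer 5 bases fit both models, and the deposited posterior SD of each count was 617 in animal 1 and 487 in animal 2. Ccdc107, a protein-coding gene on the other strand that overlaps the longer Rmrp model by 164 bases, had 467 and 434 expected counts.

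**Figure D2:**
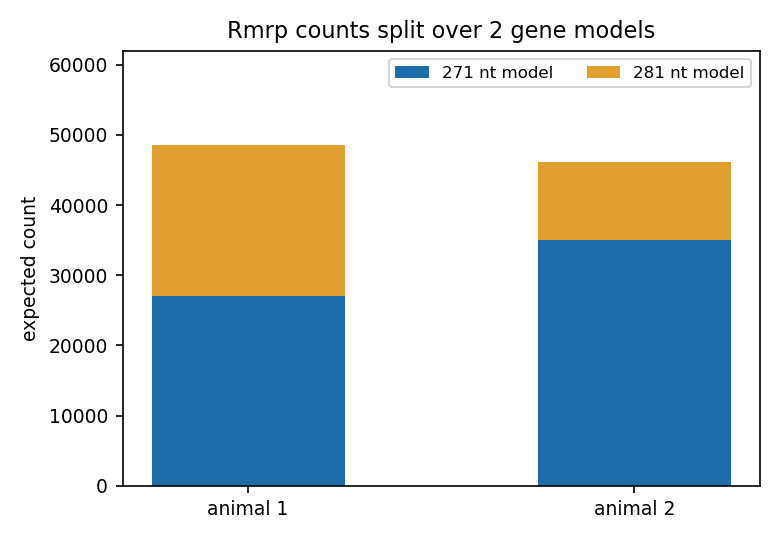
Expected counts of Rmrp in animals 1 and 2, stacked by gene model (271 nt in blue, 281 nt in yellow). The stacks reach 48594 and 46095, but the shorter model holds 55.7% of the first and 76.0% of the second.

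The second quantification gave Rmrp 0 estimated counts in both libraries and both models, so the expected count was at least 16198-fold and 15365-fold higher than a floor of 3 counts per library. Rpph1 kept 17 estimated counts in each library (95% Poisson interval, 9.90 to 27.2), or 8.84 and 9.49 TPM. Rprl3, an annotated copy with 86.0% identity to Rpph1 over its aligned part, had 4273 and 3218 expected counts. The other 3 copies had 0 expected counts. Ccnb1ip1, annotated on the same strand over 284 bases of Rpph1, was listed at 0 in both quantifications. The division between Rpph1 and Rprl3 is uncertain as far as reads fit both.

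Of the 11 genes for proteins of RNase P and RNase MRP, most of which both enzymes share, 10 were detected in each quantification. None was 2-fold apart between the animals, where 7.68% of all genes compared were. Their TMM log2 ratios had a median of -0.09, with 7 higher in animal 1 and 4 in animal 2, and with spike-in totals the median was 0.13, with 6 higher in animal 2. Pop5 had 25.2 and 21.6 TPM in the first quantification, Pop4 16.4 and 17.8 TPM, Rpp21 14.2 and 11.9 TPM, and Rpp14 9.86 and 14.8 TPM. Rpp25 was under the detection level in both animals, with 0.99 and 0.51 TPM. Parp2, which starts 73 bases from Rpph1 on the other strand, had 5.94 and 6.33 TPM.

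Terc kept more of its count in the second quantification than any other member with counts. It had 141 and 161 expected counts (95% Poisson intervals, 119 to 166 and 137 to 188), or 11.2 and 14.0 TPM (12.6 ± 1.98, SD, n = 2). The second quantification gave it 73 and 83 estimated counts, 51.8% and 51.6% of the expected counts, but a higher TPM of 23.0 and 26.8 (24.9 ± 2.72, SD, n = 2). The log2 ratio between animals was 0.27 with TMM, with a counting interval from -0.06 to 0.61, which holds 0. With spike-in totals it was 0.50 (counting interval, 0.16 to 0.83), which does not, so whether the animals differed beyond counting error depended on the scaling. Rpph1 had 616 and 456 times the TPM of Terc in the first quantification.

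Transcripts of the telomerase proteins were detected for 7 of 7 genes in both quantifications, with a median TMM log2 ratio of 0.03. Tert, the reverse transcriptase, had 2.27 and 1.78 TPM in the first quantification, on 328 and 232 expected counts. Nop10 had 45.7 and 44.9 TPM, Nhp2 16.9 and 20.7 TPM, Gar1 11.6 and 16.8 TPM and Dkc1, the pseudouridine synthase, 11.6 and 10.7 TPM; they bind the H/ACA domain of Terc and serve other RNAs too. Both annotated near copies of Terc were listed at 0.

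The shortest members had few counts. Rny1 had 22 and 8 expected counts, and Vaultrc5, at chr18:36801866-36802008 on the plus strand, had 210 and 75. Their TPM was 43.5 and 17.3 for Rny1 and 123 and 48.0 for Vaultrc5. Rny3 was listed at 0 in both libraries and both quantifications, and gets no ratio. The deposited interval of its TPM reached up to 25.4 in animal 1 and 27.7 in animal 2, so the listed 0 does not show that it was absent. For these lengths TPM magnifies each count: the effective length in the first quantification was the annotated length minus 99, which left 13 nt for Rny1, 3 nt for Rny3 and 44 nt for Vaultrc5. One count of Rny1 was worth 1.98 TPM in animal 1, where 1 count of Rn7sk was worth 0.111 TPM.

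Rny1 and Vaultrc5 were the members at least 2-fold apart between the animals, both higher in animal 1. The TMM log2 ratio was -1.32 for Rny1 (counting interval, -2.75 to -0.15) and -1.40 for Vaultrc5 (-1.80 to -1.02), or 2.50-fold and 2.63-fold. So 2 of the 9 members compared were 2-fold or more apart, against 7.68% of all 17012 genes. That share was not matched for expected count, and ratios spread less at high counts. For the 5298 genes that averaged 1000 or more, they ran from -0.64 to 0.76 between the lowest and highest 2.5%. Both were higher in animal 1, where 4.11% of all genes were, and 0 were higher in animal 2, where 3.57% were. With spike-in totals the ratios were -1.10 (counting interval, -2.53 to 0.07) and -1.17 (-1.58 to -0.79), so both values were past 2-fold, but the interval of Rny1 held 0 and that of Vaultrc5 held ratios under 2-fold. The share of all genes past 2-fold was then 2.77% for higher in animal 1 and 5.84% for higher in animal 2. The adipocyte, muscle, and plasma and B cell markers were also higher in animal 1, as were the erythroid markers (2056 and 1577 TPM, 5 of 5 genes) and, with TMM, the medulla markers (5 of 5 genes; with spike-in totals 2 were higher in animal 2). Their part in these ratios was not tested. The second quantification listed Rny1 and Vaultrc5 at 0.

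**Figure D3:**
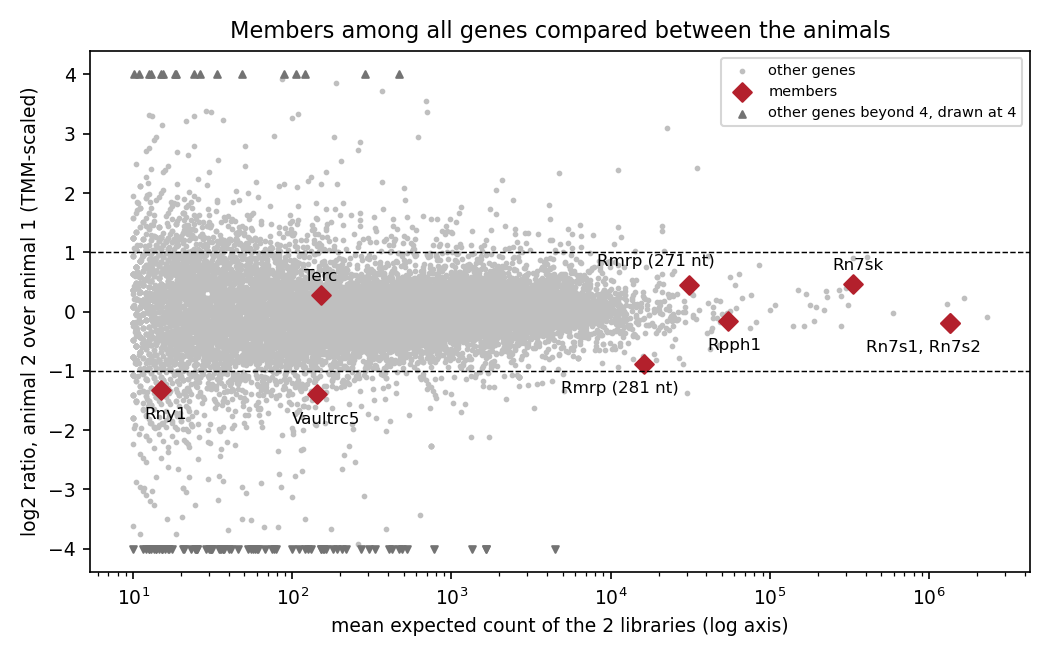
TMM-scaled log2 ratio of animal 2 over animal 1 against mean expected count (log axis) for 17012 genes, with members as red diamonds and dashed lines at 2-fold; 95 genes beyond a log2 ratio of 4 in either direction are drawn there as triangles. Rny1 and Vaultrc5 lie below the lower line, and the other 7 members lie between the lines.

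Among the proteins that bind these RNAs, Ssb, the La protein that holds the ends of new polymerase III transcripts, had 42.9 and 51.9 TPM in the first quantification. Trove2, the Ro protein of the Y RNAs, had 4.17 and 3.95 TPM. Mvp, the main protein of the vault particle, had 63.7 and 40.7 TPM and a TMM log2 ratio of -0.69, higher in animal 1 but under 2-fold. Parp4 had 10.8 and 9.69 TPM and Tep1, which is in vaults and in telomerase, 5.44 and 6.69 TPM.

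Transcripts for the machinery of RNA polymerase III were detected throughout. All 13 subunit genes and all 19 initiation factor genes, the repressor Maf1 counted among them, passed the detection level in both quantifications. None was 2-fold apart between the animals, where 7.68% of all genes compared were. The median TMM log2 ratio was 0.00 for the subunits and 0.10 for the factors. Polr1d and Polr1c, which RNA polymerase I also uses, had 38.1 and 38.6 TPM and 30.4 and 36.9 TPM in the first quantification.

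The levels of the members relative to each other held to different degrees. In the first quantification 7SL RNA had 54.8 and 53.5 times the TPM of Rpph1, a log2 ratio of 5.76 ± 0.02 (SD, n = 2). Against Rn7sk it had 11.7 and 7.43 times the TPM, a log2 ratio of 3.22 ± 0.46. Rn7sk had 4.70 and 7.20 times the TPM of Rpph1, a log2 ratio of 2.54 ± 0.44. The order 7SL, Rn7sk, then Rpph1 and Rmrp, was the same in both animals, with Vaultrc5, Rny1 and Terc far lower.

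The gap between the quantifications was set beside all genes as the log2 ratio of TPM, second over first, with 1 added to each. It had a median of 0.77 over the 14259 genes that reached 1 TPM in both animals by either quantification. Over the 9 members tested it was -11.16, from -15.65 ± 0.25 (SD, n = 2) for each 7SL gene to 0.93 ± 0.06 for Terc. By a rule of 2-fold in both animals, 8 of 9 members were lower in the second quantification, against 2.9% of all genes. Among the 8, the identical 7SL genes and the nested Rmrp models count as separate genes, though they share reads. None of the 9 was higher, against 16.8% of all genes. By the same rule, none of the measured genes for proteins of the particles or of RNA polymerase III was 2-fold lower in the second. Srp54b was near the line, with a mean log2 ratio of -0.95. It had 31.8 and 39.2 TPM in the first quantification and 15.4 and 20.4 TPM in the second. Its copy Srp54a went the other way, with a mean log2 ratio of 1.58.

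Other short transcripts showed the same gap. Genes with 1 transcript whose expected counts averaged 50 or more were grouped by length, members aside. All 37 of up to 150 nt and all 63 of 151 to 250 nt had 0 estimated counts. Of 41 genes of 251 to 350 nt, 33 had 0 and 37 kept under 1% of their expected count. For 62 genes of 351 to 450 nt, the length band of Terc, the median share kept was 2.34%, and 30 kept under 1%. The median share was 53.0% at 451 to 600 nt, 81.3% at 601 to 1000 nt and 101% at 1001 to 2000 nt. The bands were not split by biotype and hold pseudogenes as well as small RNAs. Gm12481, a processed pseudogene of 297 nt, went from 1143 and 1108 expected counts in animals 1 and 2 to 0. Of 215 genes of 601 to 1000 nt, 13 also had 0 estimated counts. In the second quantification, the annotated length minus the effective length of long genes had a median of 328 in animal 1 and 323 in animal 2, longer than every member but Rn7sk and Terc.

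Genes of 251 to 350 nt differed in the share they kept, and those named here also differ in length within that band. How the share follows length inside the band was not tested. The mitochondrial gene mt-Nd3, of 348 nt, had 39819 and 41532 expected counts and kept 16618 and 17523 estimated counts, or 42.0%. The mitochondrial gene mt-Nd4l, of 297 nt, had 30242 and 34874 expected counts and kept 150 and 260. Gm22009, a small Cajal body RNA of 343 nt, had 1512 and 1793 expected counts and kept 354 and 244, or 18.1%. Scarna10, a small Cajal body RNA of 325 nt, went from 4417 and 3490 expected counts to 2 and 4. The histone gene Hist1h4k, of 312 nt, kept 20.2%. The shortest spike-ins measured, 7 of 505 to 523 nt, kept a median of 55.1%, and 18 of 1019 to 1994 nt kept 81.0%. None of the spike-ins measured was as short as the members, so they give no value at those lengths.

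**Figure D4:**
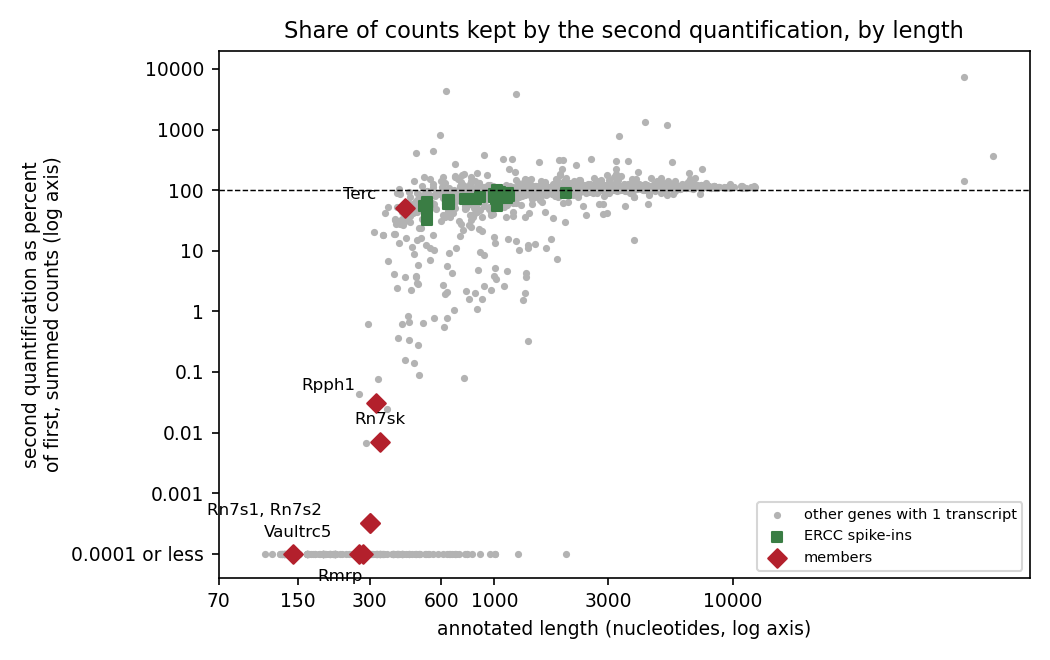
Estimated count as a percentage of expected count, summed over both libraries, against annotated length (both axes log; values of 0.0001 or less are drawn at the bottom) for genes with 1 transcript and 50 or more expected counts on average, with members as red diamonds and spike-ins as green squares. The members of up to 331 nt lie under 0.1%, among other short genes, while Terc lies near 50%.

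Since TPM is scaled to a fixed total, the share that the members take bears on the TPM of every other gene in the first quantification. Leaving them out would multiply the TPM of all other entries by 1.74 in animal 1 and 1.67 in animal 2. Over 12608 protein-coding genes with 50 or more expected counts on average, the median TPM of the second quantification over the first was 1.89 in animal 1 and 1.79 in animal 2. The same genes had median count ratios of 1.10 and 1.12. How much of the TPM ratio goes back to the members was not tested.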

How the data were processed

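Total RNA-seq libraries from the adrenal glands of 2 animals were used. The authors deposited expected counts and TPM per gene, with interval bounds of the TPM, under column names that RSEM writes, and estimated counts and TPM per transcript under column names that kallisto writes. The programs, their versions and the level of the interval were not given in the sources used here. Per the deposited descriptions, the assembly was mm10 and the annotation GENCODE M21. Other columns, such as lengths and interval bounds, were used as deposited.

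Estimated counts and TPM of the second quantification were summed per gene. Of the 55536 gene identifiers, 86 had no entry there. The 96 spike-ins (0.886% and 0.730% of expected counts) and 26248 entries named only by a number (3.76 and 4 counts) were left out of gene totals. Counts were scaled with TMM (edgeR 4.0.16, R 4.3.3), and log2 ratios of animal 2 over animal 1 used 0.5 added to each count. Expected counts were rounded to whole numbers for the scaling factors. Ratios of TPM between quantifications used 1 added. A 2-fold ratio was called, between animals only where expected counts averaged 10 or more. With 1 group, no p-value was computed. Alternatives were DESeq2 1.42.0 size factors, spike-in totals, library totals, other minimums and either animal alone. Near copies had at least 80% identity over at least 80% of the length. Poisson intervals are at 95%, for counting error only. Scripts were tested on simulated data. All members were named, and of each partner list up to 4 genes of highest mean TPM. Hexim2, Rpp25, Tert, Srp54b, Srp54c, neighbouring genes and the genes of similar length were named after their values were seen. The members and lists were chosen with earlier results of these data known. The sequence of the 7SL RNA is not reported here.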

Additional observations from a re-analysis of the deposited data

How the results depend on the processing

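No paired analysis was possible because there is only 1 group, and each animal gave 1 library. The number of members detected was 9, and 5 in the second quantification. The number at least 2-fold apart between the animals was 2, and 1 in the second quantification (Rn7sk) and 1 when expected counts had to average 50 or more (Vaultrc5). The mean summed TPM of 412969 moved to 51.1 in the second quantification, to 1368806 when scaled to protein-coding genes, to 89017 as CPM, with no correction for length, and to 53229 without Rn7s1 and Rn7s2. Using either animal alone, 9 to 9 members were detected, 8 to 8 were lower in the second quantification, and the summed TPM ran from 401591 to 424347. As CPM with no correction for length, 7 were lower in the second quantification in place of 8. Of 39 alternative values of single members' ratios between the animals, 38 stayed on their side of 2-fold and Rn7sk passed it in the second quantification. The sign differed in 4, for Rn7s1, Rn7s2 and Rpph1 with spike-in totals and Rpph1 in the second quantification. Counts limit Rny1 (22 and 8) and Rny3 (0) most, and 2 libraries give no more than a range between animals.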
